A study of Saccharomyces cerevisiae with 6 samples.

Results

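The genes described here are yeast reading frames that carry only a systematic name in the array's annotation and that differed by at least 2-fold between cells with wild-type and mutant Hsp90. They numbered 64, out of 499 such unnamed reading frames and 5449 Saccharomyces cerevisiae genes measured. Each gene was represented by its probe set with the highest mean over the 6 arrays. A frame was kept when the mean of the 3 hsc82-W296A arrays and the mean of the 3 WT arrays differed by at least 1 on the log2 scale and at least 1 of the means exceeded 8.1. The members were thus chosen by the measured difference between the groups, and their changes are given as a description with no test.

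Hsp90 is an abundant cytosolic chaperone that helps kinases, transcription factors and other client proteins to reach an active form. All 6 cultures were strain JJ816, in which HSC82 and HSP82, the chromosomal genes for Hsp90, are deleted. A plasmid supplied the only Hsp90, either wild-type Hsc82 (WT Hsc82, n = 3 cultures) or hsc82-W296A, a form with alanine in place of a tryptophan (n = 3 cultures). The cultures grew overnight in YPD, a rich glucose medium, at 30 degrees and were collected in exponential growth at an optical density of 0.5. The labels name them biological replicates, and each culture gave 1 Affymetrix array, and the p-values rest on the spread among cultures.

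A systematic name records where a frame lies: the second letter stands for the chromosome, the third for the left or right arm, the number for its order from the centromere and the last letter for the Watson or Crick strand. Frames without a standard name are mostly those whose product had no settled function when the annotation was made. In budding yeast many of them are known to follow the general stress response of the transcription factors Msn2 and Msn4, which is held down during growth on glucose and switched on by stress or starvation.

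The plasmid-borne HSC82 read 14.24, 14.30 and 14.30 on the WT Hsc82 arrays and 14.53, 14.53 and 14.56 on the hsc82-W296A arrays, a change of 0.26 ± 0.041 (SE, limma adjusted p = 0.00139). With background and middle matched, a rescaling described in the processing section, the change was -0.09 and did not pass the threshold (limma adjusted p = 0.367). The probe set of HSP82, labelled as deleted, read above background on every array, at 10.05, 10.05 and 9.98 in WT Hsc82 and 10.28, 10.29 and 10.38 in hsc82-W296A. Its change was 0.29 ± 0.048 as deposited (limma adjusted p = 0.00179) and 0.04 after quantile normalization, where it did not pass (limma adjusted p = 0.577). HSC82 is near-identical in sequence and can hybridise to these probes, whose part in the signal was not tested, so neither gene's values check the deletion or the substitution. Among 6 genes of MATa cells 2 rose and 2 fell, where 37.1% of all genes were called higher and 30.3% lower. All 6 read above background on every array, and their median change was -0.03 as deposited and -0.26 with background and middle matched. Under that rescaling MFA1 did not pass the threshold, and MFA2 and STE6 fell. Among 4 genes of MATalpha cells 3 rose, and 3 of the 4 were below background on all WT Hsc82 arrays. Their mean was 7.68 to 7.87 over the WT Hsc82 arrays and 8.66 to 8.75 over the hsc82-W296A arrays. After quantile normalization SAG1 did not pass the threshold, and MF(ALPHA)2, below background on every array, passed with a change of -0.36. The 5 genes of sporulating cells all rose as deposited, by a median of 0.52, with 3 below background on all WT Hsc82 arrays. After quantile normalization their median change was 0.08 and IME2 still rose. There SPS1, SPS2 and SPO11 did not pass the threshold, and HOP1 passed with a change of -0.26. The part of these cell types in the results below was not tested. In RNA of whole cultures, a change in the number of cells that express a gene and a change in its RNA per cell cannot be told apart. Background is the level under which 95% of 1746 probe sets for another yeast species fell, 8.16 to 8.46 on the WT Hsc82 arrays, 7.91 to 8.02 on the hsc82-W296A arrays and 8.14 for the means over all arrays.

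Of the 64 members, 57 were higher and 7 lower in hsc82-W296A, with a median change of 1.37 over all of them. Over all 5449 genes, 8.9% were at least 2-fold higher and 0.863% at least 2-fold lower. The arrays of the groups did not overlap for any of the 64 members, where this held for 73.6% of all genes, and since the rule used this contrast nothing is read from it. The gap between the nearest arrays of opposite groups was smallest for YCR099C, at 0.39. On the measured values 12 of the 57 higher members and 2 of the 7 lower ones differed at least 4-fold. Of the 12, 4 were below background on all WT Hsc82 arrays, and the lower bound given below reached 4-fold for 1 of these. That leaves 9 with such a bound or with at least 1 WT Hsc82 array above background. Among these 9, YIL055C had 2 of its 3 WT Hsc82 arrays below background, so its size is not borne out.

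The 499 unnamed frames as a whole, changed or not, can be set beside the named genes. Limma, at a Benjamini-Hochberg adjusted p under 0.05, called 65.1% of the unnamed frames and 67.6% of the 4950 named genes, or 67.3% of all. Of the unnamed frames 189 were called higher and 136 lower. By the rule's thresholds 11.4% of unnamed frames were higher and 1.40% lower, against 8.44% and 0.81% of named genes. These shares were compared by count only, and members could enter only through this contrast. At or below background lay 28.3% of the unnamed frames but 3.47% of the named genes. The median length in the gene table was 711 bases for unnamed frames, 1293 for named genes and 936 for the 64 members.

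**Figure D1:**
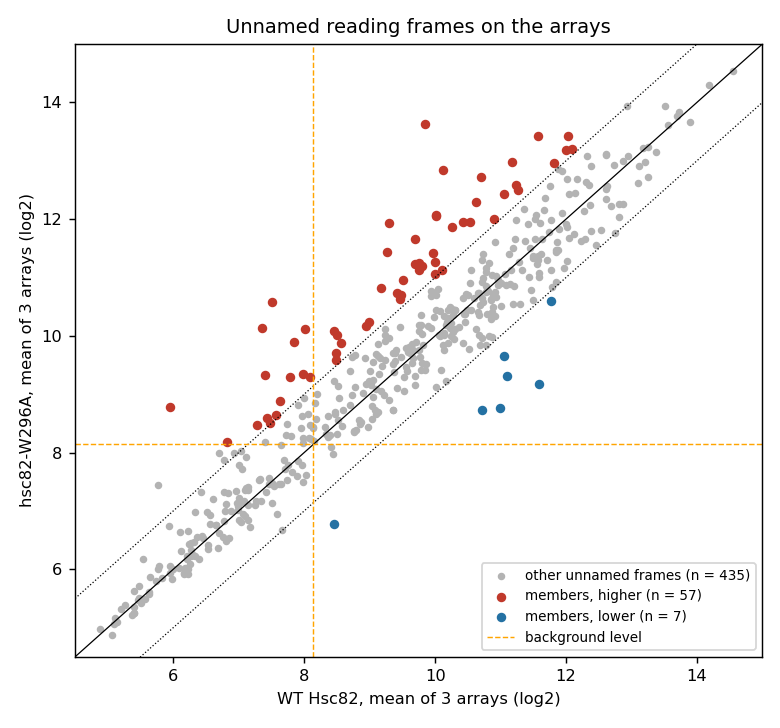
Mean deposited value (log2) of each of the 499 unnamed reading frames over the 3 WT Hsc82 arrays (x axis) and the 3 hsc82-W296A arrays (y axis), with 57 higher members in red, 7 lower members in blue, the line of equality, dotted lines 1 unit to either side and dashed lines at the background level of 8.14. The median change is 1.40 for the red points and -1.78 for the blue ones, the farthest point is red, and several red points lie left of the background line.

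The largest difference was in YDL218W, a frame of unknown function. It read 9.88, 9.64 and 9.997 on the WT Hsc82 arrays and 13.55, 13.67 and 13.65 on the hsc82-W296A arrays, a change of 3.79 ± 0.094 (SE, n = 3 per group) or 13.8-fold. Both groups were above background.

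YNL194C encodes a membrane protein of the Sur7 family, found in eisosomes, the furrow-forming assemblies under the plasma membrane. It read 7.26, 7.70 and 7.57 on the WT Hsc82 arrays and 10.55, 10.62 and 10.59 on the hsc82-W296A arrays, a change of 3.08 ± 0.109. The WT Hsc82 arrays were all below background, so its level there has only an upper limit, and measured against each array's background the frame was at least 4.86-fold higher. YGR174W-A, a frame of 87 bases with no known role, read 5.71, 6.03 and 6.11 against 8.74, 8.76 and 8.84, also from below background, and was at least 1.39-fold higher. A further probe set of this frame gave a change of 2.34 ± 0.103 where the representative gave 2.83 ± 0.103. The ID of the representative marks its probes as shared with other sequences.

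YKL107W belongs to the short-chain dehydrogenase and reductase family. It read 7.40, 7.29 and 7.37 on the WT Hsc82 arrays, below background, and 10.15, 10.13 and 10.12 on the hsc82-W296A arrays, a change of 2.78 ± 0.047 and at least 3.54-fold. YHR033W, a relative of the proline synthesis enzyme Pro1, read 9.96, 10.20 and 10.21 against 12.70, 13.00 and 12.82, a change of 2.72 ± 0.0999 from a level above background. YMR196W, of unknown function, read 9.04, 9.34 and 9.51 against 11.67, 12.01 and 12.11, a change of 2.64 ± 0.152. These frames were chosen by the difference between the groups, so nothing is read from its size beside the spread within a group.

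YJL163C, a frame with no settled role, read 8.97, 9.23 and 9.60 on the WT Hsc82 arrays and 11.34, 11.50 and 11.47 on the hsc82-W296A arrays, a change of 2.17 ± 0.150. YIL055C, also of unknown function, read 7.69, 7.93 and 8.43 against 9.79, 10.30 and 10.26, a change of 2.10 ± 0.214, with 2 of the 3 WT Hsc82 arrays below background. YGL230C read 7.59, 7.82 and 8.101 against 9.78, 9.89 and 10.003. Its WT Hsc82 arrays were all below background, and it was at least 3.00-fold higher.

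YMR181C read 9.90, 10.004 and 10.15 on the WT Hsc82 arrays and 12.03, 12.01 and 12.16 on the hsc82-W296A arrays, a change of 2.05 ± 0.077. YNL115C read 9.70, 10.13 and 10.23 against 11.87, 12.25 and 12.06, a change of 2.04 ± 0.157. YNR065C, a relative of Pep1, the receptor that sorts carboxypeptidase Y to the vacuole, read 10.47, 10.78 and 10.87 against 12.57, 12.65 and 12.91, a change of 2.01 ± 0.128. All 3 frames were above background in both groups.

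The 7 lower members changed less than the top of the higher ones. YGR035C, a frame of unknown function, read 11.74, 11.54 and 11.47 on the WT Hsc82 arrays and 9.36, 9.14 and 9.03 on the hsc82-W296A arrays, a change of -2.41 ± 0.105. YDR222W read 10.90, 10.95 and 11.12 against 8.76, 8.77 and 8.77, a change of -2.22 ± 0.063. Both stayed above background in the mutant.

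YMR230W-A, a frame of 189 bases, read 10.57, 10.76 and 10.81 on the WT Hsc82 arrays and 8.83, 8.70 and 8.68 on the hsc82-W296A arrays, a change of -1.97 ± 0.076. YOL014W read 10.94, 11.11 and 11.22 against 9.29, 9.27 and 9.35, a change of -1.78 ± 0.075. YHR214C-E, the fifth gene from a chromosome end, read 8.53, 8.34 and 8.50 against 6.90, 6.81 and 6.63. Its hsc82-W296A arrays were all below background, and measured against the background of those arrays it was at least 1.41-fold lower. The WT Hsc82 arrays have higher backgrounds, at 8.46, 8.30 and 8.16, and YHR214C-E lay little above them. The size of its decrease is therefore not borne out. No role is given here for these 3 frames.

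YLL053C resembles aquaporins, and in some other yeast strains it forms 1 continuous gene with its neighbour AQY2, a water channel. It read 10.84, 11.13 and 11.19 on the WT Hsc82 arrays and 9.91, 9.45 and 9.60 on the hsc82-W296A arrays, a change of -1.40 ± 0.140. AQY2 has a probe set of its own that the rule did not use, and it fell too, from 9.49 ± 0.195 (SD, n = 3) to 8.25, a change of -1.24 ± 0.181 (limma adjusted p = 0.000900). Both frames lie on the same strand and overlap in the gene table. YKL068W-A, a frame of 237 bases, completed the lower members with 11.81, 11.79 and 11.72 against 10.57, 10.52 and 10.70, a change of -1.18 ± 0.061.

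**Figure D2:**
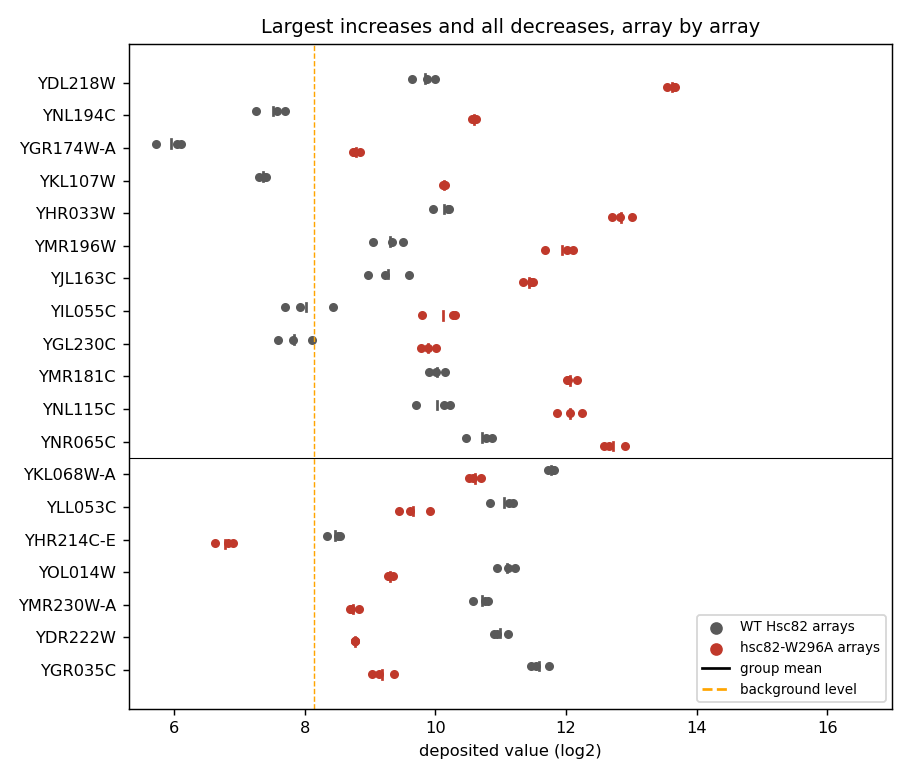
Deposited value (log2, x axis) on each of the 6 arrays for the 12 members with the largest increase (above the line) and the 7 lower members (below it). Grey points are WT Hsc82 arrays, red points hsc82-W296A arrays, short bars group means and the dashed line the background level of 8.14. No grey point overlaps the red points of its row, and YNL194C, YGR174W-A, YKL107W and YGL230C have all grey points left of the dashed line.

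The other 45 members were all higher, by 1.01 to 1.97. Their WT Hsc82 means ran from 6.83 to 12.09 and their hsc82-W296A means from 8.18 to 13.42. They are taken by what their products are known or thought to do, with the groups drawn up after the values were known.

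Relatives of enzymes, counting with them YHR138C, a relative of a protease inhibitor, made up 12 of the 64 members. All 12 were higher, where 57 of the 64 members were, and the median change of the 12 was 1.48. Several are oxidoreductases that act on aldehydes, keto acids or vitamins. YJR096W, an aldo-keto reductase that can reduce xylose and arabinose, read 11.56, 11.51 and 11.65 on the WT Hsc82 arrays and 13.43, 13.42 and 13.42 on the hsc82-W296A arrays, a change of 1.85 ± 0.048. Its named family members GCY1, a glycerol dehydrogenase, and GRE3, a broad aldose reductase, rose by 1.91 ± 0.052 and 1.04 ± 0.055, with limma adjusted p-values of 1.15e-06 and 1.22e-05. YPR127W, an aldo-keto reductase that acts on pyridoxal, changed by 1.503 ± 0.131.

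YPL113C, a glyoxylate reductase, read 9.03, 9.12 and 9.38 on the WT Hsc82 arrays and 10.83, 10.89 and 10.74 on the hsc82-W296A arrays, a change of 1.65 ± 0.095. GOR1, the named glyoxylate reductase, rose by 1.58 ± 0.062 (limma adjusted p = 4.29e-06). YNL134C, an aldehyde reductase of the alcohol dehydrogenase family, changed by 1.10 ± 0.126 and YMR090W, which resembles nucleotide-sugar dehydratases, by 1.81 ± 0.060. YGR201C, which resembles glutathione transferases, changed by 1.16 ± 0.055.

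The rest of the enzyme group touches carbohydrate, purine and protein turnover. YLR345W resembles the bifunctional enzymes that make and break fructose 2,6-bisphosphate, and changed by 1.37 ± 0.081. YJL070C resembles AMP deaminase and changed by 1.32 ± 0.066, and YIL108W, a putative metalloprotease, changed by 1.46 ± 0.155. YHR138C resembles Pbi2, an inhibitor of the vacuolar protease Prb1, and changed by 1.18 ± 0.049. PBI2 itself rose by 0.86 ± 0.047 (limma adjusted p = 1.51e-05), and by 0.56 with background and middle matched.

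Relatives of membrane, transport and sorting proteins numbered 10, of which 9 were higher and YLL053C lower. Beside YNL194C, the eisosome component YGR130C read 10.40, 10.64 and 10.58 on the WT Hsc82 arrays and 11.70, 12.08 and 12.06 on the hsc82-W296A arrays, a change of 1.41 ± 0.118. The core eisosome gene PIL1 rose by 0.63 ± 0.065 (limma adjusted p = 0.000192), or 0.38 with background and middle matched, while SUR7 fell by 0.23 ± 0.063 (limma adjusted p = 0.0158), or by 0.46 under that rescaling. Eisosome genes therefore did not all change in the same direction.

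Of the putative transporters, YLR152C changed by 1.40 ± 0.101, YDL199C, of the sugar transporter family, by 1.32 ± 0.088 and YPR003C, a relative of sulfate permeases, by 1.27 ± 0.139. YKL091C is a relative of Sec14, which transfers phosphatidylinositol between membranes. It changed by 1.23 ± 0.065, whereas SEC14 fell by 0.32 ± 0.045 (limma adjusted p = 0.000746), or by 0.56 with background and middle matched. YCR099C carries sequence related to Pep1, as YNR065C does, and changed by 1.09 ± 0.256. It had the widest spread of the members, with 8.09, 8.65 and 8.73 on the WT Hsc82 arrays and 9.12, 9.60 and 10.01 on the hsc82-W296A arrays. PEP1 rose by 0.23 ± 0.062 (limma adjusted p = 0.0142), and its change was 0.12 once arrays were centred on their medians and 0.09 with background and middle matched, neither past the threshold.

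Repeated elements accounted for 3 members. YGR109W-B and YIL082W-A encode the Pol proteins of copies of the retrotransposon Ty3, and changed by 1.94 ± 0.203 and 1.24 ± 0.098. YGR109W-B read 7.12, 7.39 and 7.68 on the WT Hsc82 arrays, all below background, and 8.93, 9.56 and 9.52 on the hsc82-W296A arrays, so it was at least 2.04-fold higher. YGR109W-A, the overlapping Gag frame of the same element, stood at 6.97 and 7.14, below background in both groups, and no fold is given. YBL111C, a helicase-like frame of a telomeric Y' element, changed by 1.37 ± 0.187, with 2 of the 3 WT Hsc82 arrays below background. The probes of YIL082W-A and YBL111C are marked by their IDs as shared with other sequences, so these signals cannot be assigned to 1 copy.

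No role is given here for the remaining 39 members, 33 of them higher. Of these, 9 frames were shorter than 300 bases, and 6 of the 9 were below background on all WT Hsc82 arrays. For these 6 the bounds were low: at least 1.98-fold for YPL119C-A, 1.39-fold for YGR174W-A, 1.27-fold for YMR158C-A, 1.22-fold for YNL277W-A, 1.16-fold for YJL077W-B and 1.12-fold for YMR175W-A. YBR085C-A was the exception among the short higher frames, with 11.91, 12.04 and 12.15 on the WT Hsc82 arrays and 13.43, 13.32 and 13.52 on the hsc82-W296A arrays, a change of 1.39 ± 0.081.

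Of the 30 longer frames with no role given, 26 were higher. YOR289W changed by 1.97 ± 0.095, YOR062C by 1.67 ± 0.062, YHR140W by 1.63 ± 0.133, YIR016W by 1.61 ± 0.045 and YER079W by 1.53 ± 0.073. YNL195C, YDL057W, YJL132W and YPL247C, the last a protein of the WD-repeat kind, changed by 1.52, 1.51, 1.45 and 1.38. YPL264C, YEL073C, YKL162C, YBR225W, YMR187C, YER158C and YGR127W changed by 1.01 to 1.22. YLR031W, YGL081W and YOR186W were below background on all WT Hsc82 arrays. The first was at least 1.49-fold and the second at least 1.99-fold higher, and no fold is given for YOR186W, whose hsc82-W296A mean of 8.18 lay under the WT Hsc82 background.

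In all, 13 of the 57 higher members were below background on all WT Hsc82 arrays, and the bound reached 2-fold in 4 of them. Just inside the threshold lay YGR127W at 1.01, YJL077W-B at 1.04 and YER158C at 1.06, and just outside it YDL124W at 0.99, YCL012C at 0.98 and YGR067C at 0.94. On the lower side the nearest inside were YKL068W-A at -1.18, YLL053C at -1.40 and YHR214C-E at -1.68, and the nearest outside YLR179C at -0.98, YGR079W at -0.95 and YNL162W-A at -0.94. Another 4 unnamed frames differed by at least 1 but had both means at or under 8.1, namely YOL163W, YCR101C, YJR154W and YGL258W-A.

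**Figure D3:**
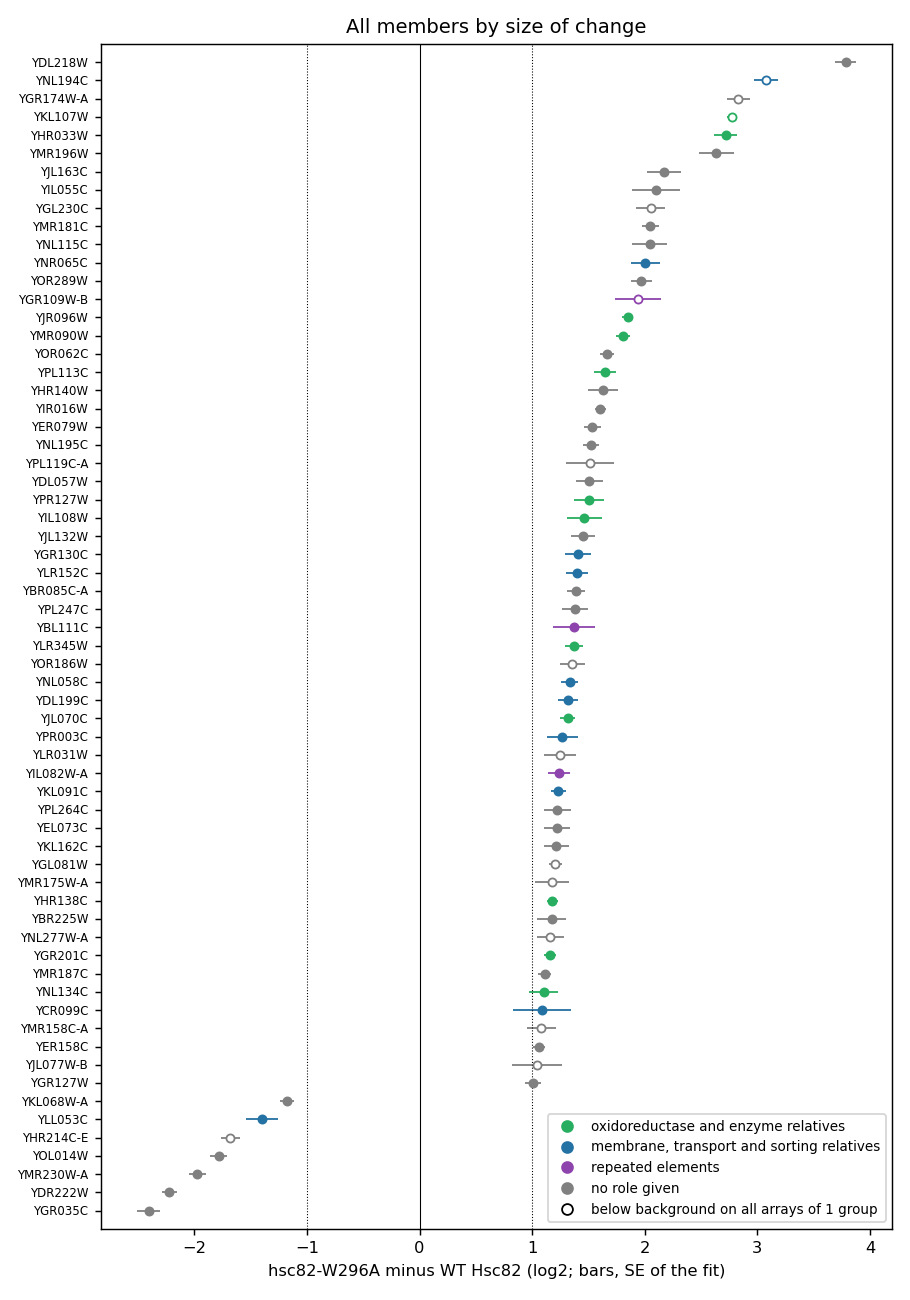
Difference between hsc82-W296A and WT Hsc82 (log2, x axis, with the SE of the limma fit) for all 64 members, ordered by size and coloured by what the products are related to. Open points mark the 14 members below background on all arrays of 1 group, 13 of them in WT Hsc82, and dotted lines mark a change of 1 in either direction.

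Duplicate genes, left from the ancient duplication of the yeast genome or from later copying, were listed for 10 members and were read from their own probe sets. These pairs were listed from general knowledge after the members' values were seen, and other members may have duplicates that were not listed. Of the 10 duplicates 7 rose, 1 fell and 2 did not pass the threshold, and 3 rose at least 2-fold, where 37.1% of all genes were called higher, 30.3% lower and 8.9% at least 2-fold higher. With the replicate block 8 rose, 1 fell and 1 did not pass. After median centring, and also with background and middle matched, 6 rose, 1 fell and 3 did not pass. As deposited the median change of the duplicates was 0.56, beside 0.04 over all genes. Nothing particular to 10 pairs chosen this way is read from these counts.

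In some pairs both copies were higher. FMP45, the duplicate of YNL194C, rose to 11.39 from below background on all WT Hsc82 arrays, where its mean was 7.95 (limma adjusted p = 1.01e-06), and was at least 8.46-fold higher. Both genes of this pair thus have only lower bounds, and their sizes cannot be compared. PRM5, a pheromone-regulated membrane protein, rose by 1.34 ± 0.091 (limma adjusted p = 3.33e-05), and its duplicate YNL058C changed by 1.34 ± 0.076. AFR1, which takes part in shaping the mating projection, rose by 1.44 ± 0.102 (limma adjusted p = 3.76e-05), where its duplicate YER158C changed by 1.06 ± 0.051. YBR284W, the duplicate of YJL070C, rose by 0.89 ± 0.084 (limma adjusted p = 0.000122), or by 0.47 after quantile normalization.

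In other pairs the copies differed. PRO1, which catalyses the first step of proline synthesis, fell by 0.96 ± 0.048 (limma adjusted p = 1.01e-05) from 12.64 to 11.68, while YHR033W was higher. YPL229W, the duplicate of YMR181C, changed by 0.21 ± 0.090 and YOL036W, the duplicate of YIR016W, by -0.03 ± 0.092, and neither passed the threshold (limma adjusted p = 0.0793 and 0.766), though YPL229W did with the replicate block (limma adjusted p = 0.0124). YKR075C, the duplicate of YOR062C, rose by 0.50 ± 0.107 (limma adjusted p = 0.00552), or by 0.32 with background and middle matched (limma adjusted p = 0.0480). Duplicates were listed for 2 of the lower members. CIS1, the duplicate of YGR035C, rose by 0.62 ± 0.070 (limma adjusted p = 0.000284) from 8.15, close to background, and by 0.18 after quantile normalization. YLR225C, the duplicate of YDR222W, rose by 0.23 ± 0.047 (limma adjusted p = 0.00395), but changed by 0.12 once arrays were centred on their medians and by 0.02 with background and middle matched, neither past the threshold. The differences between the copies of a pair were not tested.

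**Figure D4:**
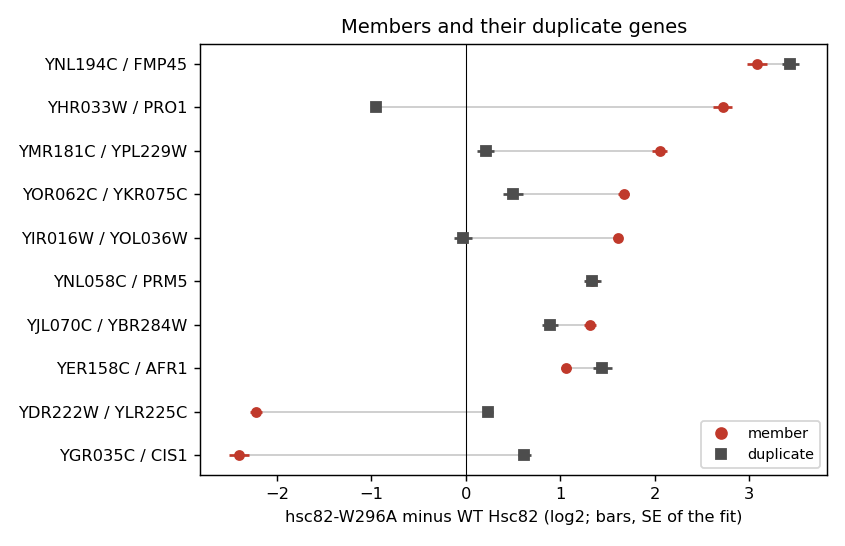
Difference between hsc82-W296A and WT Hsc82 (log2, x axis, with the SE of the limma fit) for 10 members (red circles) and their duplicate genes (grey squares). Both copies lie near each other for YNL058C and PRM5, the points of YNL194C and FMP45 rest on WT Hsc82 values below background, and the copies lie on opposite sides of 0 for YHR033W and PRO1, YDR222W and YLR225C, and YGR035C and CIS1.

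The members, 64 of 499 unnamed frames, were spread over 14 of the 16 chromosomes. They were 8 of 44 unnamed frames measured on chromosome VII, 7 of 41 on XIII and 7 of 38 on XIV. The largest share was on IX, at 4 of 17 or 23.5%. Chromosomes I and VI held 0 of 13 each, and nothing is read from counts this small. The first 10 genes from a chromosome end held 4 members, namely YBL111C, YEL073C, YCR099C and YHR214C-E, among 66 unnamed frames, of which 35 were at or below background. Without the rule's lower limit on the means, 7 of the 66 unnamed frames were at least 2-fold higher and 1 at least 2-fold lower. Counted in the same way, all 235 measured genes so placed held 30 that were at least 2-fold higher and 5 at least 2-fold lower. The adjacent members YNL195C and YNL194C lie on the same strand. YGR127W and YGR130C were separated by 2 genes, as were YHR138C and YHR140W.

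Genes next to the members were read from probe sets of their own. Except for the adjacent members YNL194C and YNL195C, none of them was chosen by the rule. Of 107 different neighbours of the 57 higher members, 43 rose, 20 fell and 44 did not pass the threshold (limma, adjusted p under 0.05), with a median change of 0.07 where all genes had 0.04. Counted among the 43 was HSC82, the neighbour of YMR187C. That gene is deleted from the chromosome and supplied on a plasmid, so its value does not report on the locus. Any part of the deletion or the plasmid in the signal of YMR187C was not tested. Of all genes 37.1% were called higher and 30.3% lower. At least 2-fold higher were 15, or 14.0%, beside 8.9% of all genes, and 1 was at least 2-fold lower. The pair YNL194C and YNL195C gave 2 of the 15. After quantile normalization the neighbours called higher and lower were 32 and 41, with 12.1% at least 2-fold higher beside 6.5% of all genes. With the replicate block 44 of the neighbours rose, 22 fell and 41 did not pass.

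Some members and neighbours were transcribed away from each other, and so shared the stretch between them as upstream sequence. For higher members 15 such neighbours were measured, and 3 of them, or 20%, were at least 2-fold higher. The share was 7.85% for neighbours so placed over all genes. The count of 3 is small, and any effect of the shared stretch was not tested. GSP2, a copy of the nuclear transport GTPase Ran, lies beside YOR186W and rose by 1.69 ± 0.054 (limma adjusted p = 1.98e-06). CBP4, needed to assemble the cytochrome bc1 complex, lies beside YGR174W-A and rose by 1.52 ± 0.060 (limma adjusted p = 4.44e-06). SEC24, of the COPII vesicle coat, lies beside YIL108W and rose by 1.14 ± 0.135 (limma adjusted p = 0.000355). In contrast RPC19, a subunit of RNA polymerases I and III beside YNL115C, fell by 0.44 (limma adjusted p = 9.88e-05), or by 0.71 with background and middle matched, and YNL193W, beside YNL194C, changed by 0.20 without passing the threshold (limma adjusted p = 0.112).

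Other neighbours with large increases pointed the same way as the member or ran towards it. SFC1, the mitochondrial succinate-fumarate carrier next to YJR096W, rose by 3.71 ± 0.093 from 8.25, close to background (limma adjusted p = 9.05e-07). SPS100, a spore wall protein next to YHR138C, rose by 3.58 ± 0.159 from 8.004, below the background level (limma adjusted p = 6.45e-06). SIP18, a hydrophilin next to YMR175W-A, rose by 2.30 ± 0.057 (limma adjusted p = 9.05e-07) from 12.13 to 14.44, and YMR175W-A was below background in WT Hsc82. PIR3, a cell wall protein whose gene faces YKL162C, rose by 4.67 ± 0.184 (limma adjusted p = 4.36e-06). The neighbour that was at least 2-fold lower was MRS3, a mitochondrial iron carrier next to YJL132W, which fell by 1.17 ± 0.052 (limma adjusted p = 6.86e-06).

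For comparison, 40 named genes of the Msn2 and Msn4 response were listed with earlier results of these data known, so the list is not independent evidence of its direction. Of the 40, 40 rose and 34 were at least 2-fold higher, where 37.1% of all genes were called higher and 8.9% were at least 2-fold higher. Their median change was 1.84, or 1.69 with background and middle matched. Under that rescaling HOR7 changed by -0.05 and did not pass the threshold (limma adjusted p = 0.602). The mean of the 40 genes lay at 11.02 to 11.12 over the WT Hsc82 arrays and 12.85 to 13.02 over the hsc82-W296A arrays.

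The scaling of the arrays moved the number of members in each direction. Of the 64 members 58 passed the rule with background and middle matched, 57 after median centring and 47 after quantile normalization, and none changed sign under these 3 settings. The lower frames passing the rule numbered 7 as deposited but 13, 15 and 20 under the same settings, so the predominance of higher frames was less marked there. The 7 lower members passed the rule under each of the 3 settings. In the same order, these settings lowered the median change over all probe sets from 0.04 to -0.06, -0.07 and -0.09. That the lower members passed is therefore no sign of stability.

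**Figure D5:**
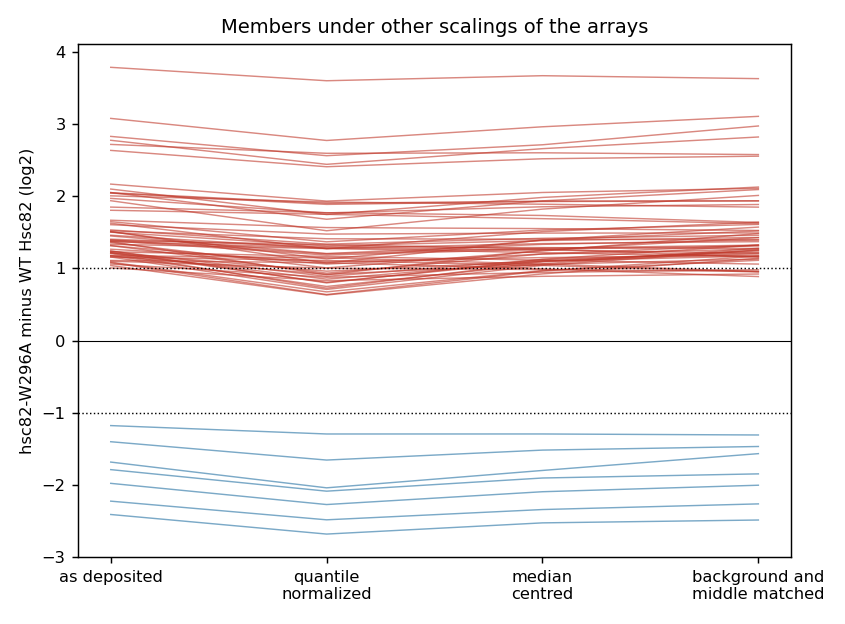
Difference between hsc82-W296A and WT Hsc82 (log2, y axis) of each of the 64 members, 1 line per member, for the deposited values and for 3 other scalings of the arrays. Red lines are higher members and blue lines lower members, and dotted lines mark the rule's threshold of 1 in either direction. No line crosses 0, and 16 members lie inside the dotted lines after quantile normalization.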

How the data were processed

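Total RNA was labelled as biotinylated cRNA, per the labels' protocols. The values deposited by the authors ran from 4.53 to 14.93 and were taken as log2, and array means of 8.91 to 8.92 show that they had been normalized. Limma is named in the submitters' processing notes. How probes were corrected, normalized and summarized is not given in the sources used. Arrays have no read depth, so their number and the background limit the precision.

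Of 10928 probe sets, 7244 had 1 symbol, 1 had several and 3683 were not listed. Matching gene IDs to a gene table of assembly R64 gave 5498 probe sets of 5449 S. cerevisiae genes and changed 12 symbols, none of a member. No coordinates are printed. All 5498 were fitted with lmFit and eBayes (limma 3.58.1, R 4.3.3) for the difference between the genotypes, with Benjamini-Hochberg adjustment and a threshold of 0.05. The fit was tested on simulated data. "At least" folds set the bright group's mean against each array's background.

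Members and lists were chosen with earlier results of these data known. Given array by array are the 12 largest increases and all decreases, and neighbours, duplicates, chromosome ends and frames nearest the threshold follow. Array deviations from their group mean had correlations of 0.405, 0.152 and 0.361 between same-numbered arrays and from -0.383 to 0.138 between others, so that pair 2 stands out little. No label pairs the arrays, and these values do not settle whether same-numbered cultures were paired. Background fell from replicate 1 to replicate 3 in both groups, from 8.46 to 8.16 in WT Hsc82 and from 8.02 to 7.91 in hsc82-W296A. Its part in these correlations was not tested. The printed values come from the fit without the replicate block. Blocked values are given for a single gene whose call the block changed, and for the counts of duplicates, neighbours and all genes. Background and middle matched rescales each array so that its other-species and S. cerevisiae medians equal their means over the arrays. The arrays were also quantile normalized or centred on their medians, dim probe sets, shared probe sets and each array were left out, probe sets were averaged per gene, and the fit was run with a robust prior, an intensity trend or array weights, whose estimation stopped short of its convergence tolerance. The search for promoter motifs and the protein comparison planned for duplicates were not run. Python 3.11.15, numpy 2.4.6, pandas 2.3.3 and matplotlib 3.10.9 were used.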

Additional observations from a re-analysis of the deposited data

How the results depend on the processing

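The 19 members given array by array were chosen by this contrast, so that they kept their direction and their side of the threshold in all 301 values under 16 alternatives is no sign of stability. The number of lower frames passing the rule moved from 7 to 13 with background and middle matched, 15 after median centring and 20 after quantile normalization, and the higher frames from 57 to 51, 50 and 40. The cause was not tested. Genes called higher and lower, 2019 and 1650 as deposited, were 1744 and 2210, 1702 and 2304, and 1554 and 2428 in the same order. With the replicate block they were 2226 and 1761, and all 64 members still passed the rule. Leaving out 1 array kept 59 to 64 of the 64 members, and without WT Hsc82 replicate 1, YCR099C, YGR127W, YJL077W-B, YMR158C-A and YNL134C fell short of it. Leaving out dim probe sets removed 7 members and leaving out shared probe sets 3. Over all probe sets the median change went from 0.04 to -0.09 with quantile normalization.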
